A study of Mus musculus with 12 samples.

Results

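The genes described are 10 heat shock and chaperone genes, Hspa8, Hspa5, Hspa1a, Hspa1b, Hsp90aa1, Hsp90ab1, Hspd1, Hspe1, Dnajb1 and Hsph1. They were taken by symbol from 21905 protein-coding genes that had both mm10 coordinates and RNA-seq values. Each gene was read in 2 RNA-seq tables and in 7 ChIP-seq peak lists, the peaks being those that touched a window from 1 kb before the gene to 5 kb after it. The samples were mouse embryonic stem cells (mESCs) of the E14TG2a (E14) line and NIH3T3 cells, an established line of mouse embryonic fibroblasts. Both lines were grown in the same medium with serum and LIF, and the labels give no heat shock, stress or other treatment for either. In both lines, GFP had been knocked in at the end of Ctr9, a core subunit of the Paf1 complex, and pools of GFP-positive cells rather than single clones were used for the Ctr9 ChIP-seq. NELFA-GFP and RNAPII Ser5p were mapped in mESCs that carried a GFP-tagged NELFA. H3K27ac was mapped in both lines, and RNAPII Ser2p in mESCs. Every peak list and RNA-seq table was made from 1 library without a replicate. The spread between cultures was not measured, and no p-value is given. In such bulk libraries, fewer cells that express a gene and less RNA per cell cannot be told apart.

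Chaperones bind unfolded or partly folded proteins and help them reach or keep their shape. The HSP70 and HSP90 proteins of the cytosol are ATP-driven machines that work with J-domain proteins, nucleotide exchange factors and other cochaperones, while the endoplasmic reticulum (ER) and the mitochondrion have chaperones of their own. Some of the genes are constitutive and strong in nearly every cell, and others, such as the Hspa1 pair, are kept low and are switched on by the heat shock factor HSF1, a case in which RNA polymerase paused near the start is a classical feature. NELF holds the paused polymerase, Ser5 phosphorylation of the polymerase tail marks early transcription, Ser2 phosphorylation marks later elongation, the Paf1 complex travels with elongating polymerase, and H3K27ac marks active promoters and enhancers.

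The RNA-seq libraries matched their labels. The 5 pluripotency markers had 211 to 1402 TPM in mESCs and at most 0.511 TPM in NIH3T3 cells, and the 6 fibroblast markers were each higher in NIH3T3 cells. Fn1 (75.7 against 406 TPM) and Thy1 (5.69 against 168 TPM) were also detected in mESCs. TPM, a transcript's share of all transcripts in the library, is corrected for transcript length, so levels can be compared between genes. A gene's level was the TPM of its highest transcript in that library. Summed over transcripts, the mESC library held 26400407 estimated counts and the NIH3T3 library 28849497. The depth of the ChIP-seq libraries is unknown, since the peak lists hold no read counts.

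Most of the 10 genes were among the strongest transcripts of both lines, and most differed little between them. In mESCs 8 of the 10 and in NIH3T3 cells 7 of the 10 lay in the top 25% of expressed protein-coding genes, which began at 21.6 and 23.5 TPM. Over all their transcripts, the 10 genes held 1.49% of all TPM in mESCs and 0.842% in NIH3T3 cells. On the log2(TPM + 1) scale, only Hsp90aa1 was at least 2-fold higher in mESCs. Of the 12379 genes with at least 1 TPM in a library, 23.8% passed the same fold in that direction. Only Hspa5 was at least 2-fold higher in NIH3T3 cells on this scale, where 20.0% passed. Hspa1a, under 1 TPM in both libraries, is described below. Of the 10 genes, 8 had the higher value in mESCs, and Hspa5 and Hspa1b had it in NIH3T3 cells. Of the 9 with at least 1 TPM, 7 had the higher value in mESCs, beside 54.4% of all 12379 genes. The median log2 difference, mESC minus NIH3T3 on the log2(TPM + 1) scale, was 0.17 over the 9 members with at least 1 TPM and 0.13 over all 12379 genes.

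**Figure D1:**
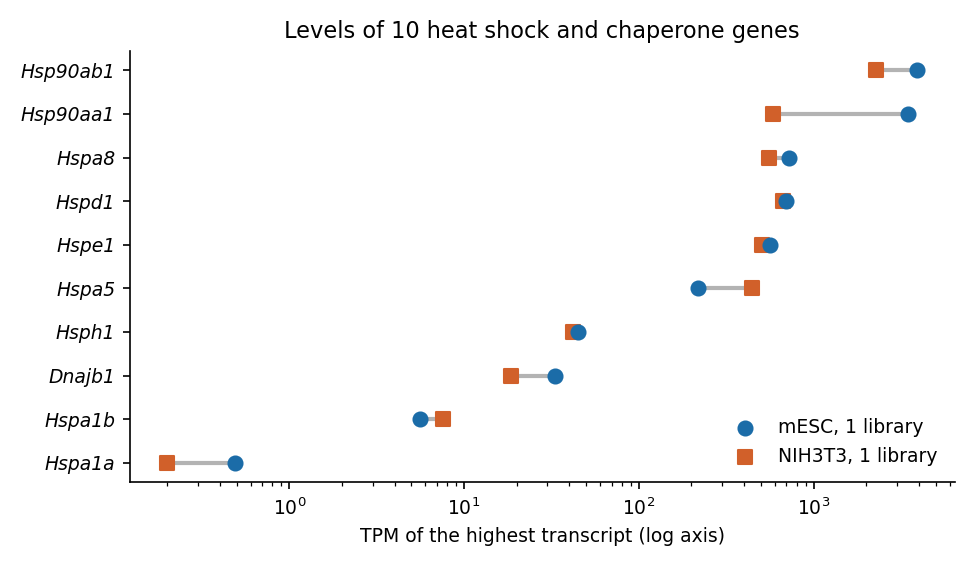
TPM of the highest transcript of each gene (log axis) in the mESC library (circles) and the NIH3T3 library (squares), with genes in order of their mESC level and a line joining both values. Hsp90aa1 shows the widest gap, 3455 against 585 TPM, Hspa5 is the clearest gene with the higher value in NIH3T3 cells, and Hspa1a and Hspa1b lie far below the rest.

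The cytosolic HSP90 pair held the 2 highest levels of the set in mESCs, while in NIH3T3 cells Hspd1 lay between them by the highest transcript. Hsp90ab1, the constitutive form, had 3921 TPM in mESCs and 2273 TPM in NIH3T3 cells and ranked 5 and 29 among all protein-coding genes. Hsp90aa1, the form usually described as the inducible one, had 3455 TPM in mESCs and 585 TPM in NIH3T3 cells and ranked 8 and 139. Hsp90ab1 was thus the higher of the pair in both lines. Summed over all transcripts, Hsp90ab1 had 7677 and 4678 TPM and Hsp90aa1 had 3875 and 677 TPM, so how near the pair lay in mESCs depended on how the level was taken. By these sums Hspa8, with 1293 TPM, and not Hspd1, with 669 TPM, lay between the pair in NIH3T3 cells. In mESCs, 2633 and 1094 TPM of the Hsp90ab1 sum belonged to short transcripts of 351 and 656 bases. By estimated counts, which are not corrected for length, Hsp90ab1 had 187731 and Hsp90aa1 154620 in mESCs. The log2 difference was 2.56 for Hsp90aa1, a 5.90-fold difference, and 0.79 for Hsp90ab1. From the estimated counts of all transcripts of each gene, scaled to the library totals, the log2 ratios were 2.54 and 0.77. Their counting error is small, with a 95% half-width of 0.02 for Hsp90aa1 and 0.01 for Hsp90ab1, but it leaves out the spread between cultures. The strongest retained-intron transcript of Hsp90aa1 was higher in mESCs too, with 396 TPM against 81.7 TPM in NIH3T3 cells.

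The constitutive cytosolic and mitochondrial chaperones were nearly level. Hspa8, the constitutive HSP70 protein known as HSC70, had 720 TPM in mESCs and 553 TPM in NIH3T3 cells, a log2 difference of 0.38. Hspd1 and Hspe1 encode the mitochondrial chaperonin HSP60 and its partner HSP10, which close over a folding protein as a chamber and its lid. Hspd1 had 700 TPM in mESCs and 667 TPM in NIH3T3 cells, and Hspe1 had 566 and 504 TPM. Their log2 differences were 0.07 and 0.17. In each line Hspd1 was the higher of the pair.

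Hspa5, the HSP70 protein of the ER known as BiP, went the other way. It had 219 TPM in mESCs and 443 TPM in NIH3T3 cells, a log2 difference of -1.01 that lies just past the 2-fold line. Its counting half-width was 0.03, so the 2-fold line lies within the counting error while the direction does not depend on it.

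Dnajb1 and Hsph1, both known as stress-inducible, had lower levels than the constitutive members. Dnajb1, the J-domain protein HSP40 that hands substrates to HSP70, had 33.2 TPM in mESCs and 18.5 TPM in NIH3T3 cells, with a log2 difference of 0.81. Hsph1, an HSP110 protein that serves as nucleotide exchange factor of HSP70, had 45.2 and 41.9 TPM by its highest transcript, which is annotated as a retained intron. Its strongest protein-coding transcript had 28.3 and 27.4 TPM, so the 2 libraries lay close together by either measure.

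Hspa1a and Hspa1b, the inducible HSP70 pair, were the lowest genes of the set. Hspa1b had 5.62 TPM in mESCs and 7.57 TPM in NIH3T3 cells, from 313 (95% exact Poisson interval 279 to 350) and 449 (408 to 493) estimated counts. Hspa1a had 0.491 and 0.200 TPM, from 29.8 (20.2 to 42.8) and 12.9 (6.92 to 22.2) estimated counts, so the higher value was in mESCs. Scaled to the library totals, the log2 ratio of these estimated counts, rounded to whole numbers, was 1.33, with a 95% exact interval of 0.35 to 2.40 for counting error only, and both levels were under 1 TPM. The sum of the pair was 6.11 TPM in mESCs and 7.77 TPM in NIH3T3 cells. The transcripts of the pair are near copies, and 63.8% of the 31-base words of Hspa1a also occur in Hspa1b. Of the words of Hspa1a 879 of 2937, and of those of Hspa1b 883 of 2769, occur in transcripts of no other gene. Reads from the words that both share can be divided between the copies by estimation only, so the sum is the safer value.

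The same limit touches other members. The main transcript of a gene is here its protein-coding transcript with the highest mean TPM. Of the 31-base words of that transcript, 92.0% at Hspa8, 70.8% at Hsp90aa1, 59.1% at Hspe1 and 55.8% at Hspd1 also occur in transcripts of other genes, led by processed pseudogenes at Hspa8, Hsp90aa1 and Hspd1. At Hsp90ab1 the share was 16.6% and at Dnajb1 0.475%. Hspa5 and Hsph1 shared none. What part such sharing has in the values was not tested.

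Around these genes lay 143 distinct peaks of the 7 lists. The lists differ in size, with 44748 Ctr9 peaks in mESCs and 22016 in NIH3T3 cells, and 19417 and 34241 H3K27ac peaks. A Ctr9 peak touched the window of 9 of the 10 genes in mESCs, where 44.1% of all protein-coding genes and 91.9% of those in the top 25% of TPM had one. In NIH3T3 cells it was 8 of the 10, beside 25.8% of all genes and 65.8% of the top 25%. H3K27ac peaks touched 8 genes in mESCs (43.1% of all genes, 89.7% of the top 25%) and all 10 in NIH3T3 cells (54.7% and 97.5%). The members' shares of Ctr9 and H3K27ac lay near those of the top 25%. The counts include windows in which no peak reached the gene itself: in mESCs 7 members had Ctr9 over the main transcript (31.2% of all genes, 71.1% of the top 25%) and 7 had H3K27ac (33.9% and 80.7%). In NIH3T3 cells 6 had Ctr9 (18.0% and 51.7%) and 8 had H3K27ac (48.0% and 94.4%).

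Polymerase and NELFA peaks were rarer in general. NELFA peaks touched 6 of the 10 genes (10.4% of all genes, 29.4% of the top 25%), Ser5p peaks 8 (12.8% and 36.3%) and Ser2p peaks 5 (6.99% and 21.3%). These counts and shares are for the window. Over the main transcript itself, 6 members had NELFA, 6 had Ser5p and 3 had Ser2p. The 5 genes with Ser2p were Hspa8, Hsp90aa1, Hsp90ab1, Hspd1 and Hspe1, which were also the 5 with the highest mESC levels. With 10 genes, some in pairs that share a window, these shares are a description only.

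**Figure D2:**
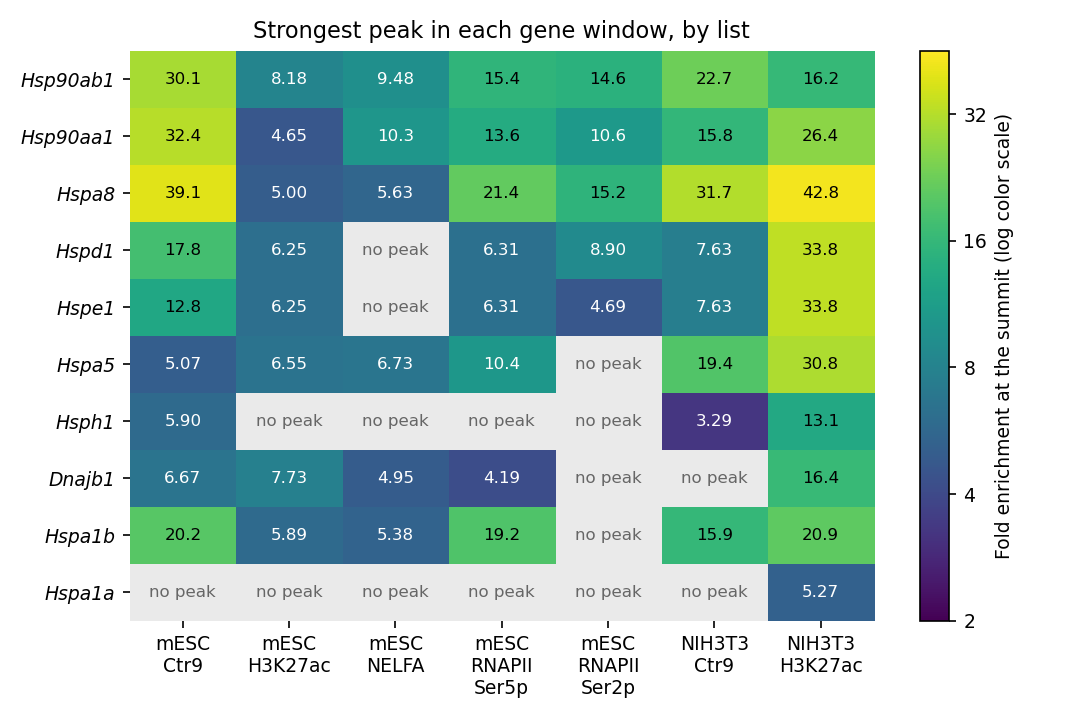
Fold enrichment at the summit of the strongest peak in each gene window (numbers and log color scale), for the 10 genes in order of mESC TPM and the 7 lists, with grey cells where no peak touched the window. In mESCs, Hspa8, Hsp90aa1 and Hsp90ab1 have the highest Ctr9 values, the values in the Hspa1b row mostly belong to a neighboring gene, and Hspa1a has a peak in the NIH3T3 H3K27ac list only.

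The fold enrichment of a peak is the fragment pileup at its summit over the local background. The lists were made separately, so a value is best read against its own list. The median fold enrichment of H3K27ac peaks was 3.97 in mESCs and 6.75 in NIH3T3 cells, and that of Ctr9 peaks 3.71 and 4.27. Hspa8 had the strongest Ctr9 peak of the set in both lines. Its fold enrichment was 39.1 in mESCs and 31.7 in NIH3T3 cells, above 99.98% and 99.97% of the peaks of these lists. Hsp90aa1 reached 32.4 in mESCs and 15.8 in NIH3T3 cells, and Hsp90ab1 reached 30.1 and 22.7. Hspa5 had the reverse order, with 5.07 in mESCs, above 83.9% of the peaks of that list, and 19.4 in NIH3T3 cells, above 99.8%. Hspd1 had 17.8 in mESCs and 7.63 in NIH3T3 cells, Hspe1 had 12.8 and 7.63, and Hsph1 had 5.90 and 3.29, at nearly level TPM. By the strongest peak in the window, Hspa5 was thus the only member with a Ctr9 peak in both lines and the higher value in NIH3T3 cells. These peaks need not lie at the same place. At Hspd1 the 17.8 lay past the end and the 7.63 near the start, where a mESC peak had 4.61. The 7.63 of Hspe1 is that same NIH3T3 peak, and the peaks in the Hspa1b window lie at another gene. What part the depth and background of the libraries have in these differences was not tested.

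Ctr9 covered some of these genes from end to end. Peaks lay over 100.0% of the main transcript of Hspa8 and Hsp90aa1 in both lines, and over 99.7% of that of Hsp90ab1 in mESCs and 100.0% in NIH3T3 cells. Hspa5 was covered over 35.1% of its length in mESCs and over 100.0% in NIH3T3 cells. Coverage of at least 90% was found for 3 members in mESCs (1.61% of all genes, 5.20% of the top 25%) and for 4 in NIH3T3 cells (1.14% and 5.22%). At Hspd1 the coverage was 55.7% and 40.0%, at Hspe1 19.9% and 18.6%, and at Dnajb1 19.5% and 0%. Hsph1, Hspa1a and Hspa1b had no Ctr9 over the main transcript in either line.

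The strongest Ctr9 summit usually lay past the transcript end. This was so for 8 of the 9 members with a peak in mESCs, beside 65.6% of all genes with a peak and 81.9% of those in the top 25% of TPM, and for 6 of 8 in NIH3T3 cells, beside 46.0% and 52.1%. The distance past the end of the main transcript in mESCs was 517 bps at Hsp90aa1, 773 bps at Hspd1, 872 bps at Hsp90ab1, 876 bps at Hspe1, 921 bps at Hsph1, 1391 bps at Dnajb1 and 1759 bps at Hspa8. In NIH3T3 cells it was 371 bps at Hsp90aa1, 1003 bps at Hsp90ab1, 1126 bps at Hspa5 and 1815 bps at Hspa8. At Hsph1 the only NIH3T3 summit lay 1693 bps past the end. The strongest Ctr9 peak in the window of Hspa1b, 6620 bps past its end in mESCs and 5587 bps in NIH3T3 cells, counts among these but lies at another gene. At Hspa8, Hsp90aa1 and Hsp90ab1 the summit fell at a similar distance in both lines, while at Hsph1 the distances differed more. The strongest summit lay past the end only in mESCs at Hspd1 and Hspe1, and only in NIH3T3 cells at Hspa5.

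At the starts of 4 genes, NELFA, Ser5p and H3K27ac lay in the same order in mESCs. Here and below a start is that of the main transcript. A NELFA summit lay within 1 kb of the start of 6 of the 10 genes, beside 7.84% of all genes and 25.1% of the top 25% of TPM. The distance was 3 bps at Hsp90aa1, 4 bps at Hspa8, 6 bps at Hspa5, 31 bps at Hspa1b, 40 bps at Hsp90ab1 and 106 bps at Dnajb1, in each case inside the transcript. The genes without a NELFA summit were Hspa1a, Hspd1, Hspe1 and Hsph1.

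Ser5p summits lay within 1 kb of the start of 6 genes (7.87% of all genes, 26.3% of the top 25%), at 33 bps at Hspa5, 70 bps at Hsp90aa1, 111 bps at Hsp90ab1, 152 bps at Hspa8, 240 bps at Hspe1 and -348 bps, upstream of the start, at Hspd1. The Hspd1 and Hspe1 values are the same peak. H3K27ac summits did so at 7 genes (31.6% and 80.9%), at 164 bps at Hspa5, 165 bps at Hspa8, 192 bps at Hsp90ab1, 197 bps at Hsp90aa1, 274 bps at Dnajb1, 336 bps at Hspd1 and 341 bps at Hspe1. Of the 4 members with all 3 summits, 4 had NELFA nearest to the start, then Ser5p, then H3K27ac, beside 35.8% of the 934 genes with all 3. NELFA was also nearer than H3K27ac at Dnajb1, so in 5 of 5 members that had both, beside 73.3% of all such genes. Ser5p was nearer than H3K27ac in 5 of 6 members that had both, beside 63.3%, the exception being Hspd1. With so few members, some of which share a start, these counts are a description only. A Ctr9 summit lay within 1 kb of the start of 4 genes in mESCs (11.0% and 26.9%) and of 3 in NIH3T3 cells (10.8% and 30.3%). Ser2p summits did so at 2 genes (1.59% and 3.32%), Hspa8 and Hsp90ab1. In NIH3T3 cells, H3K27ac summits lay within 1 kb of the start of 9 genes (43.9% and 92.3%), every member but Hspa1a. Measured from the start of the gene record instead, which lies farther upstream at some genes, the counts were 3 for mESC Ctr9 (10.8% of all genes), 7 for mESC H3K27ac (31.9%), 5 for NELFA (7.96%), 6 for Ser5p (7.96%), 1 for Ser2p (1.57%), 3 for NIH3T3 Ctr9 (10.7%) and 9 for NIH3T3 H3K27ac (43.8%).

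**Figure D3:**
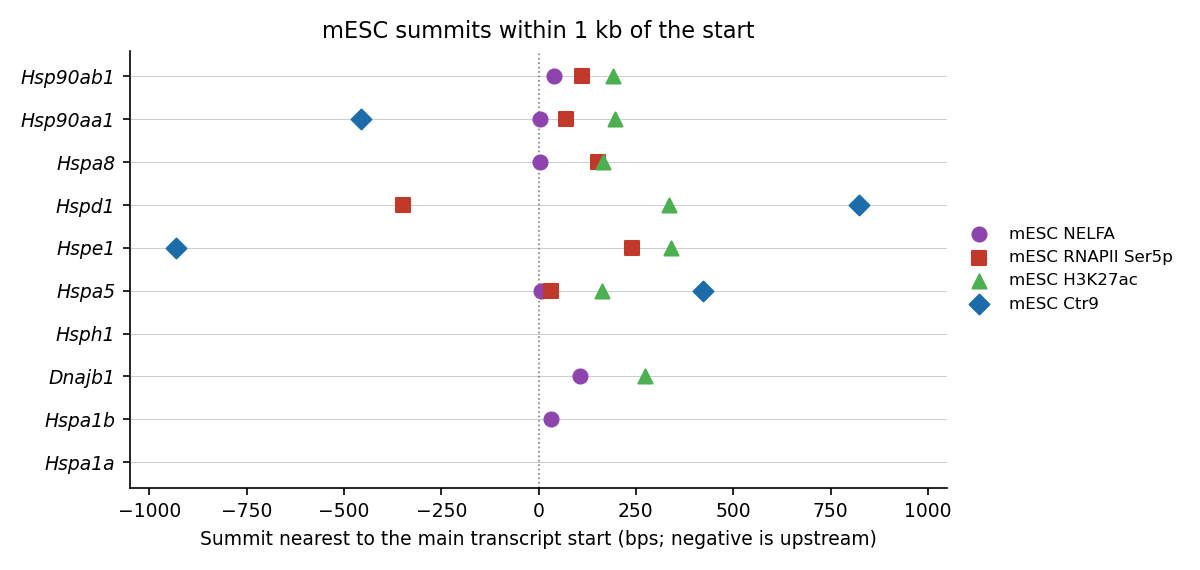
Distance in bps of the mESC summit nearest to the start of the main transcript, positive inside the gene, for each gene and for the NELFA, Ser5p, H3K27ac and Ctr9 lists where a summit lay within 1 kb. NELFA summits lie 3 to 106 bps inside 6 genes, and at Hsp90aa1, Hspa8, Hspa5 and Hsp90ab1 the Ser5p and then the H3K27ac summits lie farther in.

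Hspa1a (ENSMUSG00000091971, chr17:34969190-34972156, minus strand, GRCm38) and Hspa1b (ENSMUSG00000090877, chr17:34956436-34959238, minus strand) each have a single annotated transcript and lie 9952 bps apart. Their upstream sequences are shown because they are nearly the same while their peaks were not. Each line gives 250 bases before the RefSeq start on GRCm38.p6, read 5′ to 3′ on the minus strand, from chr17:34972157-34972406 for Hspa1a and chr17:34959239-34959488 for Hspa1b. Capitals mark a heat shock element of 2 units (GAANNTTC or TTCNNGAA, 104 bases before the start) and a CCAAT box on the other strand (67 bases before the start).
Hspa1a promoter: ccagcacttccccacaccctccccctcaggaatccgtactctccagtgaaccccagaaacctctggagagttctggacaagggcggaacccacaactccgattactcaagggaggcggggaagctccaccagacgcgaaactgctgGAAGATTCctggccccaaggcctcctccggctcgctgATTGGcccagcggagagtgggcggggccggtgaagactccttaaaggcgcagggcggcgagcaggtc
Hspa1b promoter: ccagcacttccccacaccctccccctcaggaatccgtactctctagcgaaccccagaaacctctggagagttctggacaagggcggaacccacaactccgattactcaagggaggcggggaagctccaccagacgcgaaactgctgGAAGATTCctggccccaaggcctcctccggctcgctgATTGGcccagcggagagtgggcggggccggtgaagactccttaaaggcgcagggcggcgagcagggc

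Of these 250 bases 3 differed, so the sequences were 98.8% identical. Of 32851 RefSeq promoter windows, which run from 250 bases before to 50 bases after a start, 15.1% held the element of 2 units and 37.4% a CCAAT box on either strand, so both matches are common. Neither window held an exact match to the element of 3 units (GAANNTTCNNGAA or TTCNNGAANNTTC) or to the letters TATAAA. Only exact letters were searched, here and below, so longer elements with a mismatch in a unit were neither marked nor counted. Such a match is a description of letters, not evidence of a bound site.

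In mESCs, Hspa1b had a NELFA peak of 207 bps with a fold enrichment of 5.38 and a summit 31 bps inside the gene, and no Ctr9, Ser5p, Ser2p or H3K27ac peak reached the transcript. It was the sole member with NELFA at its start and no H3K27ac or Ser5p summit within 1 kb. The peak covered 149 bases of the promoter window of Hspa1b. No peak of any of the 5 mESC lists touched the window of Hspa1a.

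In NIH3T3 cells, an H3K27ac peak with a fold enrichment of 17.3 had its summit at -319 bps, upstream of the Hspa1b start, and covered 154 bases of its promoter window. Hspa1a had none there. Its H3K27ac peaks, with fold enrichments of 5.27 and 3.57, had summits 3493 and 4395 bps past its end. Part of this sequence cannot tell the copies apart: of the 50-base words under the NELFA peak, 51.3% also occurred within 5 kb of Hspa1a, against 3.41% under the NIH3T3 H3K27ac peak and 62.3% over the Hspa1b transcript. Whether reads were lost or misplaced between the copies was not tested.

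The other peaks in the window of Hspa1b lay at 1110038B12Rik, a noncoding gene whose start is 3965 bps past the end of Hspa1b and which had 85.8 TPM in mESCs and 333 TPM in NIH3T3 cells. They included a Ctr9 peak in each line, with fold enrichments of 20.2 (mESCs) and 15.9 (NIH3T3 cells), and a mESC Ser5p peak of 19.2. Hspa1l, which starts 547 bps from Hspa1a in the opposite direction, had 0.0238 and 0.0457 TPM.

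Hsp90aa1 (ENSMUSG00000021270, chr12:110690605-110702728, minus strand) was occupied well past its end. In mESCs a single Ctr9 peak of 11537 bps reached over the whole main transcript with a summit 517 bps past the end, and in NIH3T3 cells a peak of 7812 bps did so with a summit 371 bps past the end. In mESCs the 8 Ser5p peaks reached a fold enrichment of 13.6, at 500 bps past the end, and the 3 Ser2p peaks reached 10.6, at 2017 bps past the end. At the start, NELFA had its strongest member peak, with a fold enrichment of 10.3, above 93.8% of its list, and Ser5p had 11.2.

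The gene record of Hsp90aa1 begins 6439 bps upstream of the main start, with a transcript listed at 0 TPM in both lines. Ctr9, H3K27ac and Ser5p peaks lay near that upstream start in mESCs, with fold enrichments of 4.88, 4.13 and 7.32 within 1 kb of it. In NIH3T3 cells the H3K27ac peaks there had 3.92 and 7.30, against 26.4 at the main start.

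Hsp90ab1 (ENSMUSG00000023944, chr17:45567775-45573271, minus strand) had the same layout. The Ctr9 peak was 8586 bps wide in mESCs and 9004 bps in NIH3T3 cells, with summits 872 and 1003 bps past the end. Ser5p reached a fold enrichment of 15.4 at 419 bps past the end and 13.3 at 111 bps from the start, and Ser2p reached 14.6 at 598 bps past the end. NELFA had 9.48 at the start and a weaker peak of 3.88 at 345 bps past the end. The convergent gene Slc35b2, with 10.2 TPM in mESCs and 32.2 TPM in NIH3T3 cells, overlaps this region, its end lying 104 bps from that of Hsp90ab1, so the peaks past the end lie in both genes' territory.

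Hspa8 (ENSMUSG00000015656, chr9:40800984-40810087, plus strand) had a group of peaks past its end that held every factor but H3K27ac. In mESCs the summits lay 1570 bps past the end for Ser5p, 1658 bps for Ser2p, 1680 bps for NELFA and 1759 bps for Ctr9. Their fold enrichments were 21.4, 15.2, 4.96 and 39.1, and for Ser5p, Ser2p and Ctr9 this was the strongest peak of the gene. In NIH3T3 cells Ctr9 had a fold enrichment of 31.7 at 1815 bps past the end. The main transcript ends 4887 bps before the gene record does, so this group lies inside the record, which is extended by a transcript with 0 TPM in mESCs and 0.921 TPM in NIH3T3 cells.

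At the start of Hspa8, NELFA had a fold enrichment of 5.63 and Ser5p 17.9. H3K27ac had 4.88 in mESCs and 20.6 in NIH3T3 cells, above 67.2% and 91.1% of the peaks of their lists. A second H3K27ac summit lay about as far upstream in both lines, at -951 bps in mESCs and at -932 bps in NIH3T3 cells. In NIH3T3 cells its fold enrichment was 42.8. The snoRNA genes Snord14c, Snord14d and Snord14e in its introns were listed at 0 in both libraries. The paper describes mRNA sequencing. Whether it captures such short RNAs was not tested, so the 0 is not evidence that they were absent.

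**Figure D4:**
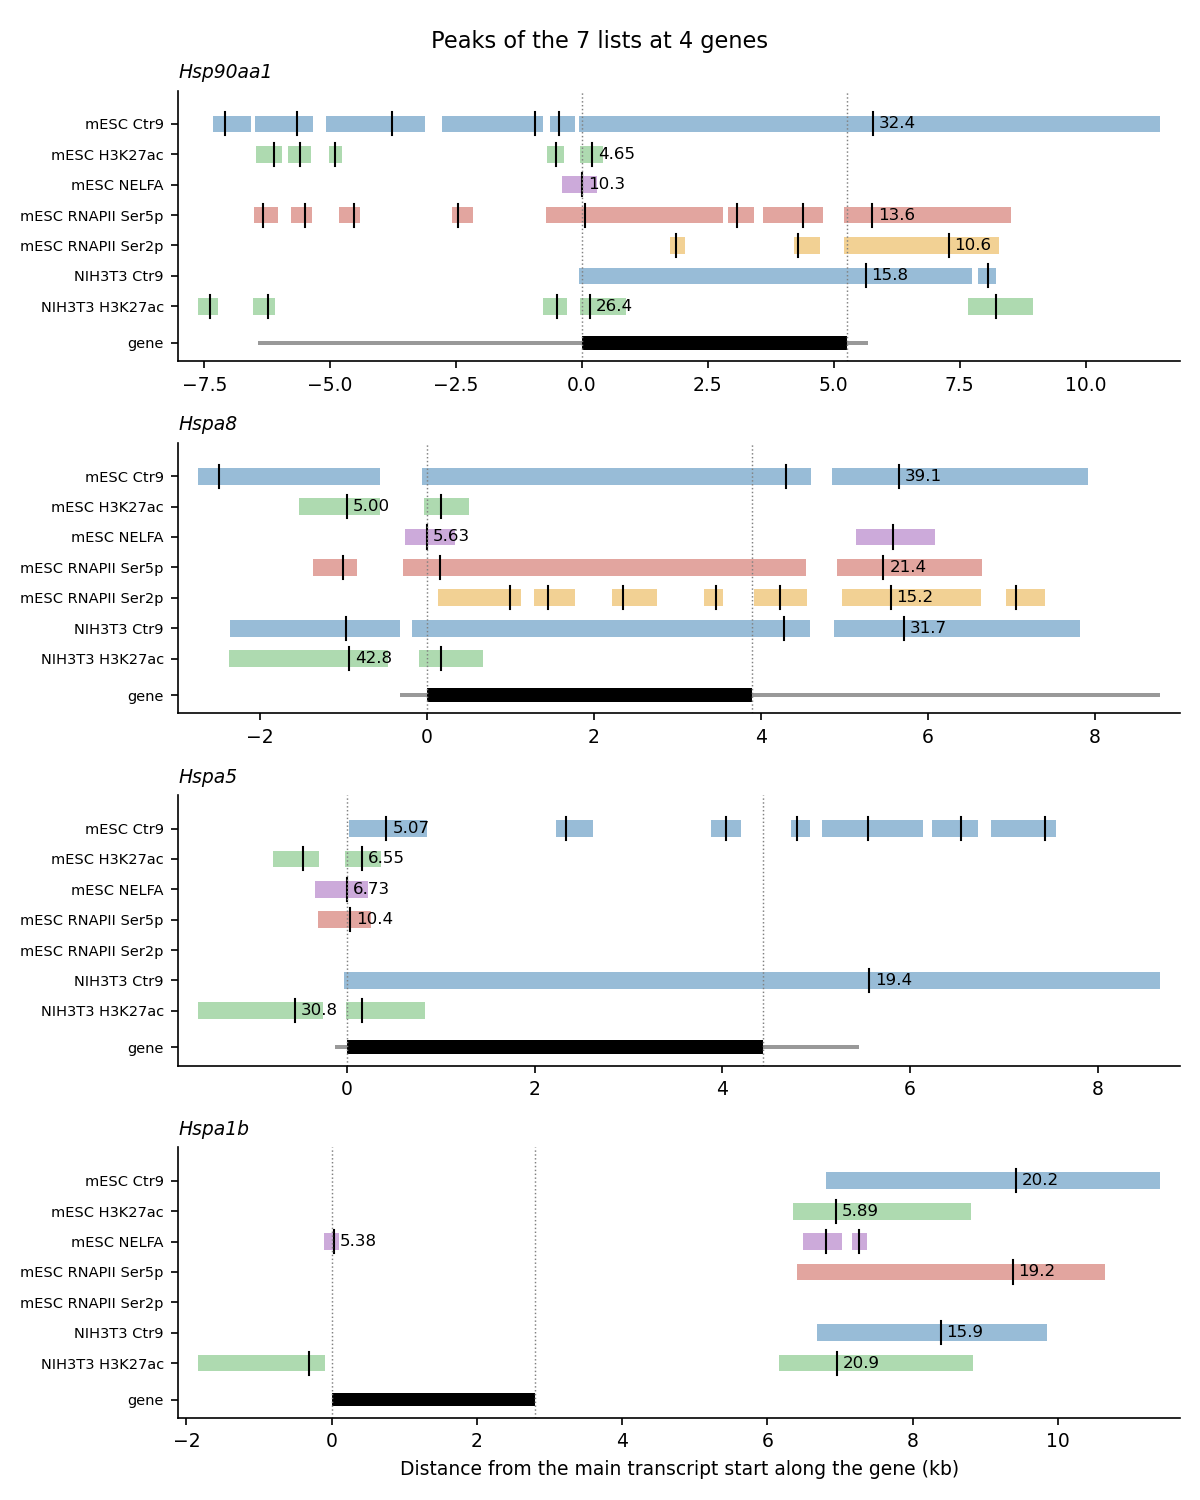
Peaks of the 7 lists (bars, with summits as black ticks and the highest fold enrichment of each list as a number) around Hsp90aa1, Hspa8, Hspa5 and Hspa1b, by distance in kb from the start of the main transcript (black bar; the grey line is the gene record), with a separate scale in each panel. Ctr9 covers Hsp90aa1 and Hspa8 in both lines and Hspa5 fully in NIH3T3 cells only, while Hspa1b carries a NELFA peak at its start and the strong peaks of its window lie past its end.

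Hspa5 (ENSMUSG00000026864, chr2:34771970-34777547, plus strand) looked different in the lines. In mESCs there were 7 separate Ctr9 peaks, the strongest with a fold enrichment of 5.07 at 423 bps from the start, and in NIH3T3 cells a single peak of 8698 bps had 19.4 at 1126 bps past the main end. In mESCs a weaker summit of 4.61 lay at nearly the same place, 1112 bps past the end. NELFA had 6.73 and Ser5p 10.4 near the start, and no Ser2p peak touched the window. H3K27ac had its strongest summit at 164 bps in mESCs, with 6.55, and at -548 bps, upstream of the start, in NIH3T3 cells, with 30.8. These lay above 85.5% and 97.7% of the peaks of their lists. The convergent gene Rabepk, with 4.85 and 10.1 TPM, ends 1025 bps past the main end of Hspa5, close to both summits.

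The Hspa5 promoter window held the ER stress element, searched as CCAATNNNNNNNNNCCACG on both strands, which 0.119% of all windows held, and NELFA and Ser5p peaks covered all 300 bases of that window. The element overlaps 1 of 4 CCAAT boxes of the window and is shown because it is the motif through which ER stress is known to act on BiP. The line gives chr2:34772020-34772048 of GRCm38.p6 on the plus strand, 5′ to 3′, and capitals mark the element, which begins 65 bases before the RefSeq start.
Hspa5 site: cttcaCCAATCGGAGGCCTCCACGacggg

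Hspd1 (ENSMUSG00000025980, chr1:55077835-55088243, minus strand) and Hspe1 (ENSMUSG00000073676, chr1:55088132-55091307, plus strand) are divergent, with main starts 108 bps apart, and share the peaks between them. No NELFA peak touched either gene. Around the shared start, Ser5p had a fold enrichment of 6.31 at 240 bps inside Hspe1 and 4.51 at 618 bps inside Hspd1. H3K27ac had 6.25 in mESCs and 33.8 in NIH3T3 cells, at 336 and 322 bps inside Hspd1. These lay above 83.2% and 98.5% of the peaks of their lists.

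Ctr9 in mESCs lay mainly at both outer ends, with 17.8 at 773 bps past Hspd1 and 12.8 at 876 bps past Hspe1. Ser2p summits lay close to these, with 8.90 at 783 bps past Hspd1 and 4.69 at 806 bps past Hspe1. In NIH3T3 cells the strongest Ctr9 peak of the pair was instead near the shared start, with 7.63 at 369 bps inside Hspd1, beside 5.81 at 546 bps past Hspd1. No NIH3T3 Ctr9 peak lay past the end of Hspe1.

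The shared region held 2 overlapping matches to the heat shock element of 3 units, which are read in both genes' windows. Joined, they make a single run of units that is longer than the searched form. At least 1 match to the form of 3 units was found in 0.603% of all windows. The line gives chr1:55088053-55088082 of GRCm38.p6 on the plus strand, 5′ to 3′. It is shown because these constitutively strong genes carry exact matches to the longer element, and the Hspa1 windows held no exact match. Capitals mark the matches, the first of which begins 89 bases before the Hspe1 RefSeq start.
Hspe1 and Hspd1 site: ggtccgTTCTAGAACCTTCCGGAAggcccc

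Dnajb1 (ENSMUSG00000005483, chr8:83608193-83612653, plus strand) had NELFA at its start, with a fold enrichment of 4.95, and no Ser5p summit within 1 kb of it. Ctr9 in mESCs had 6.67 at 1391 bps past the end, close to weak Ser5p peaks of 3.77 and 4.19 at 1208 and 1651 bps past the end. No Ctr9 peak touched the window in NIH3T3 cells, where the TPM was lower and the whole Ctr9 list was shorter. What part either has in the missing peak was not tested. H3K27ac had 7.73 at 274 bps in mESCs and 16.4 at 271 bps in NIH3T3 cells. These lay above 91.8% and 85.6% of the peaks of their lists, so the mESC peak ranked higher in its own list. Tecr starts 222 bps away in the opposite direction and had 129 and 111 TPM, so upstream peaks cannot be told apart by gene.

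The line gives 203 bases before the Dnajb1 RefSeq start, chr8:83607972-83608174 of GRCm38.p6 on the plus strand, 5′ to 3′, shown because the NELFA peak begins inside it. Capitals mark a CCAAT box on the other strand. The window held no exact match to a heat shock element of 2 or 3 units.
Dnajb1 promoter: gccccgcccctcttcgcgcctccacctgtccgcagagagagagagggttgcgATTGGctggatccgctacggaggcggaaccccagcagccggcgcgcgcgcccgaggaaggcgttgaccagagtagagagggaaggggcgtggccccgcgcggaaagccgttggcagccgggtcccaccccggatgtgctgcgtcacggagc

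Hsph1 (ENSMUSG00000029657, chr5:149614287-149636376, minus strand) had a single mESC peak of any list, Ctr9 with a fold enrichment of 5.90 at 921 bps past the main end. In NIH3T3 cells Ctr9 had 3.29, above 9.50% of its list. No H3K27ac peak touched it in mESCs, while in NIH3T3 cells 5 did, led by 13.1 at 251 bps inside the start and 11.8 at -715 bps, upstream of it. The TPM of the gene nevertheless differed little between the lines. The NIH3T3 H3K27ac list is also the longer one, and its part in this contrast was not tested. A heat shock element of 3 units begins 15 bases after a RefSeq start at 149636315, and the line gives chr5:149636280-149636308 of GRCm38.p6 on the minus strand, 5′ to 3′, with the element in capitals. Of the 7 members with a RefSeq promoter window, Hsph1, Hspd1 and Hspe1 held an exact match to this form. Hspa8, Hsp90aa1 and Hsp90ab1 were not searched.
Hsph1 site: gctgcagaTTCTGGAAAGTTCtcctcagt

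The wider chaperone network was read from 85 further genes, of which 78 had at least 1 TPM in a library. Of these, 7 were at least 2-fold higher in mESCs (8.97%, where 23.8% of all genes were) and 12 in NIH3T3 cells (15.4%, where 20.0% were), with a median log2 difference of 0.06. None of 7 kept subunits of the TRiC chaperonin, which folds actin and tubulin, passed 2-fold in either direction, and their median was 0.26. Of the 9 TRiC genes sought only 8 were found, so the complex was not read in full. Of 15 ER stress genes 1 passed, in NIH3T3 cells, and their median of -0.57 had the sign of Hspa5. Of the 2 HSP90 genes beyond the members 1 passed, in NIH3T3 cells, with a median of -0.44. This was Hsp90b1, the HSP90 protein of the ER, with 371 TPM in mESCs and 1007 TPM in NIH3T3 cells. Calr, the ER lectin chaperone calreticulin, had 501 and 654 TPM.

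The small heat shock proteins were divided, with 2 higher in mESCs and 4 in NIH3T3 cells among 6 kept, and a median of -2.63. Hspb1, known as HSP25 or HSP27, had 1049 TPM in mESCs and was listed at 0 in NIH3T3 cells, so no fold is given. An exact 0 in estimated counts can be a failed estimate, which was not tested, and Hspb1 is 1 of the 2 genes counted as higher in mESCs. Hspb2 had 2.57 and 0.253 TPM. Hspb11, an intraflagellar transport protein despite its name, had 2.07 and 51.3 TPM. Without it, the group had 2 higher in mESCs and 3 in NIH3T3 cells among 5, with a median of -2.47, a choice made after its value was seen. Dnajb4, a J-domain protein related to Dnajb1, had 2.3 and 41.7 TPM.

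Of 9 kept HSP70 and HSP110 genes beyond the members, 1 was higher in mESCs and 2 in NIH3T3 cells, and of 17 J-domain genes 0 and 2, with medians of 0.52 and -0.36. The 14 cochaperones had 2 and 2, with a median of 0.23, and the 5 mitochondrial genes had 1 and 0, with a median of 0.60. Of 3 kept heat shock factors 1 was higher in mESCs. Hsf1, the main factor of the heat shock element, had 18.4 TPM in mESCs and 28.3 TPM in NIH3T3 cells, a log2 difference of -0.60.

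**Figure D5:**
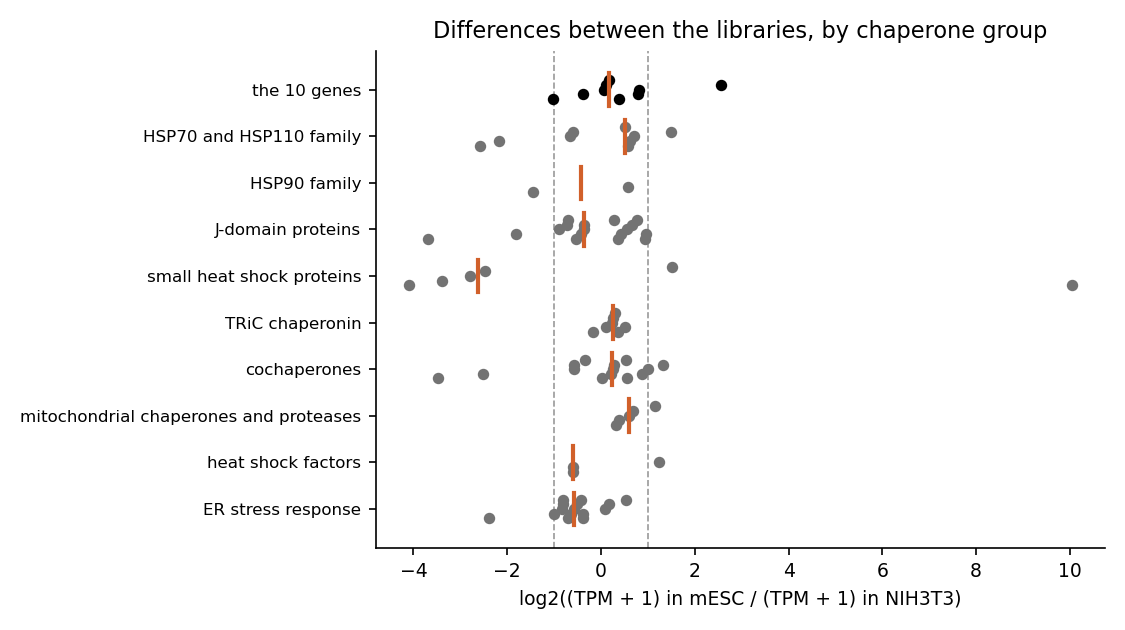
Log2 difference in TPM, mESC minus NIH3T3 on the log2(TPM + 1) scale, for the members and the kept genes of each chaperone group (points), with the group median in orange and dashed lines at 2-fold. The group of small heat shock proteins spreads widest, from Hspb11 at -4.09, not a chaperone by its known function, to Hspb1, which is listed at 0 in NIH3T3 cells, and the TRiC subunits all lie inside the dashed lines.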

How the data were processed

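ChIP-seq and RNA-seq were analysed in mESCs and NIH3T3 cells, with 1 library for each of 7 peak lists and 2 RNA-seq tables; 3 input libraries were not used here. The authors aligned ChIP-seq reads to mm10 with Bowtie2 2.3.5.1, removed blacklisted regions and called peaks per library with MACS2 2.2.6. The deposited peak lists give a score, a fold enrichment ratio, −log10 p and q values and a summit. The authors quantified RNA with kallisto 0.46.1 on GENCODE transcripts, and the deposited tables give estimated counts and TPM per transcript. Coordinates came from GENCODE M21, a later release than the one quantified, and promoters from RefSeq (GRCm38.p6), which matched 7 of 10 members with 10 entries; Hspa8, Hsp90aa1 and Hsp90ab1 were not matched.

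Values were computed in Python 3.11.15 with pandas 2.3.3. A gene's level was the TPM of its highest transcript, differences were taken on log2(TPM + 1), and a difference of 2-fold was the call. Genes under 1 TPM in both libraries were left out of the shares and medians of differences. Shares of all genes for peaks and summits kept them, over 21905 protein-coding genes, or 21817 where a main transcript was needed. A peak counted when it overlapped the window by at least 1 bp. No test was made, since no group has a replicate. Intervals of counts are exact Poisson at 95%, and intervals and half-widths of log2 ratios are exact binomial at 95%. Both cover counting error only. All 10 members were named; of the wider list, those with the 2 most extreme differences in each direction, the 3 highest TPM, Hspa1l and Hsf1 were. The members and lists were chosen with earlier results of these data known. Scripts were tested on simulated data and passed 9 of 9 checks.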

Additional observations from a re-analysis of the deposited data

How the results depend on the processing

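The gene level (sum of transcripts, coding transcripts only, estimated counts scaled to the library total), the pseudocount, the TPM filter, the q threshold, the window and the distance to a start were each varied. All 40 log2 differences of the members kept their sign, and 63 of 70 alternatives for the strongest Ctr9 and H3K27ac fold enrichments kept the value. The NIH3T3 H3K27ac value at Hspa1b was 20.9 with the wide window and 17.3 with 1 kb on each side. In the other 6 no peak was left: both Ctr9 peaks of the Hspa1b window with the summit inside it or with 1 kb on each side, and mESC H3K27ac at Hspa1b and NIH3T3 H3K27ac at Hspa1a with 1 kb on each side. Of 57 alternatives for counts of members, 51 stayed within 1.5 times the reported count, as did 11 of 11 for the wider list. Members with a Ser2p peak were 5 in the window, 3 over the gene body and 3 over the main transcript. Within 500 bps of the start of the gene record in place of 1 kb, members with a summit fell from 3 to 0 for mESC Ctr9, from 1 to 0 for Ser2p and from 3 to 1 for NIH3T3 Ctr9, while from the start of the main transcript there were 2 for Ser2p. The main transcript was chosen as an alternative after seeing the data. No paired analysis was possible because each group has 1 library. ChIP-seq depth is unknown, so a missing peak was below the peak caller's threshold and is not shown to be absent binding.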
